A study of Mus musculus with 8 samples.

Results

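The mitosis genes described here are 38 genes that encode mitotic cyclins, kinases, kinetochore, spindle and cytokinesis proteins, taken by gene symbol from a table of 23361 genes. All 38 were found, and all belonged to the 11158 genes that reached 1 FPKM (read fragments scaled for transcript length and library depth) in at least 1 group. The cells were leukaemia lines of the acute myeloid type from mouse bone marrow (strain 129S6). They carried the fusion oncogene MLL-AF9 and grew with interleukin 3. One line was Cdc73fl/fl CreERT2 (called floxed), so that the gene Cdc73 could be excised, and the other was Cdc73 +/+ CreERT2 (called wild type). Both lines carried CreER, a recombinase that acts when 4-hydroxytamoxifen (4OHT) is present, and every group received 7.5 nM 4OHT. The 4 groups were floxed at 24 h, wild type at 24 h, floxed at 48 h and wild type at 48 h, with 2 biological duplicates each.

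The duplicates had been combined by the authors into 1 FPKM value per gene and group, so no SD could be given for any level below. A gene was called when the authors' q for floxed against wild type cells was under 0.05. The labels do not say whether duplicates were separate cultures, so q covers only the spread between those libraries. No source used here says whether a line is 1 clone, and untreated cells were not analysed here, so differences between the lines that were there before 4OHT are part of every comparison of the lines. Total reads were not given and no counting interval was computed.

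Entry into mitosis is driven by the kinase Cdk1 bound to cyclin A or cyclin B, with Plk1 and the Aurora kinases acting beside it. Kinetochore proteins tie chromosomes to the spindle, and the spindle checkpoint holds the anaphase-promoting complex inactive until every chromosome is attached. Then Cdc20 activates that complex, securin is destroyed, separase cuts cohesin, and the midzone kinesins and the chromosomal passenger complex guide the splitting of the cell. In most dividing cells these genes are transcribed together late in the cell cycle, under MuvB complexes with B-Myb and the factor Foxm1. Their promoters often carry a cell cycle gene homology region (CHR) near the start site and CCAAT boxes, the binding site of NF-Y, upstream of it.

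Promoter windows from RefSeq (GRCm38.p6, 250 bases before to 50 after a start site) matched 30 of the 38 members, with 32 windows. Ccna2, Cdc25c, Aurkb, Incenp, Kif20a, Tpx2, Foxm1 and Fam64a had none. Both strands were searched for the CHR letters TTTGAA, which read TTCAAA when they lie on the other strand. The CHR variant TTTAAA, which reads the same on both strands, and the NF-Y motif CCAAT, which reads ATTGG on the other strand, were searched too, and no match of one motif was removed for overlap with another. TTTGAA was in 23 of 32 member windows (71.9%), against 17.9% of all 32851 windows and 12.2% of the 10480 windows of expressed genes. CCAAT was in 24 of 32 (75%), against 37.4% of all windows and 38.5% of those of expressed genes. TTTAAA was in 9 of 32 (28.1%), against 13.2% and 8.85%. Both TTTGAA and CCAAT were in 21 of 32 member windows (65.6%) and in 6.95% of all windows. Of 27 matches to TTTGAA in the member windows, 21 began within 50 bases of the start site, while 34 of 50 matches to CCAAT began in the 100 bases before it. The windows of 6 members (7 of 32: Pttg1, Sapcd2, Kif2c, Kif4, Mad2l1 and both of Bub3) start over 120 bases from the start of the gene in GENCODE M21, so positions in them may not refer to the start used in these cells. Without them, a setting chosen after seeing the data, TTTGAA was in 19 of 25 windows (76%) and CCAAT in 21 of 25 (84%). Of the 23 matches to TTTGAA left, 19 began within 50 bases of the start site.

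**Figure D1:**
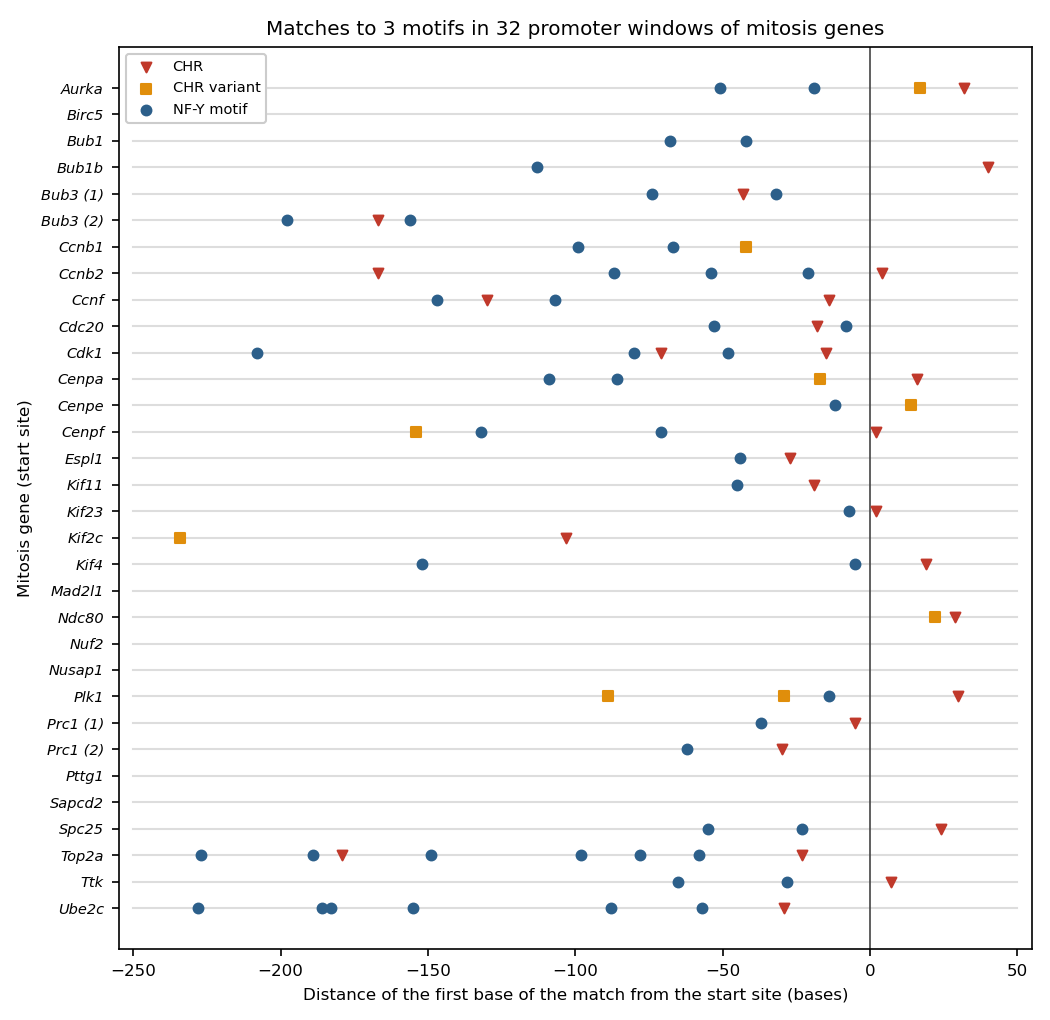
Each row is 1 promoter window of a mitosis gene, and the x axis is the distance in bases of a match from the start site at 0. Triangles are the CHR letters, squares the CHR variant and circles the NF-Y motif. Triangles lie close to the start site in 21 of 27 cases, with circles mostly to their left.

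Below are 7 windows that show what this arrangement looks like in genes that were called at 48 h and in one that was not. Capitals mark the 3 motifs on either strand, and each stretch runs from 120 bases before the start site to 30 after it, 5′ to 3′ along the gene. The first 3 genes were called higher in floxed cells at 48 h, the next 3 were called lower, and Cdk1 was not called.
Birc5, chr11:117849117-117849266, plus strand: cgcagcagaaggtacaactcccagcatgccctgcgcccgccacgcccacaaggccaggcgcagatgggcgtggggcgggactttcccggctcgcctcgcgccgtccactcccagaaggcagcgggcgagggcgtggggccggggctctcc
Espl1, chr15:102296173-102296322, plus strand: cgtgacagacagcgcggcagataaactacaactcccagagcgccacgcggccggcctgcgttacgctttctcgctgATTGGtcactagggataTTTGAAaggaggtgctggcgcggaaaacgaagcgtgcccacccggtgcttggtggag
Spc25, chr2:69206184-69206333, minus strand: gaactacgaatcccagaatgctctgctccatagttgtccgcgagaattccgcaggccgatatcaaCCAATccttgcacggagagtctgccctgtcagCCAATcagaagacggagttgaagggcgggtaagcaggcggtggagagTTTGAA
Ttk, chr9:83834569-83834718, plus strand: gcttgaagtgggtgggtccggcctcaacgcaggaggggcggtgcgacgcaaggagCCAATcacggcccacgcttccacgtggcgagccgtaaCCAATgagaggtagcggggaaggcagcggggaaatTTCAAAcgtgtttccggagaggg
Ccnb2, chr9:70421525-70421674, minus strand: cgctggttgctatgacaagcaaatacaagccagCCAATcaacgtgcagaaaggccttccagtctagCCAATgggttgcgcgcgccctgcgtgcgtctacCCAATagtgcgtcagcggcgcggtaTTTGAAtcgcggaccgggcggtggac
Cenpe, chr3:135212443-135212592, plus strand: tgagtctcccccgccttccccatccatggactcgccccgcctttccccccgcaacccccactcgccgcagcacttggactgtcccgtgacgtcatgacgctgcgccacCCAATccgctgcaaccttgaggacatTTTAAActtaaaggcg
Cdk1, chr10:69352883-69353032, minus strand: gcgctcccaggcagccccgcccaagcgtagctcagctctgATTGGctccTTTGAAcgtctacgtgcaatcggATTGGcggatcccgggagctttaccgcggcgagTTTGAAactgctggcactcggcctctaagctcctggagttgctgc

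Ccnb2 and Ttk show the usual order, with CCAAT boxes followed by a CHR at the start site, and Spc25 and Espl1 show it too although they were called in the other direction. The printed stretch of Birc5 holds none of the 3 motifs, and that of Cenpe holds CCAAT and the CHR variant TTTAAA but no TTTGAA. Of the 8 members that were called at 48 h and had a window, 4 held TTTGAA, and of the 22 not called 17 did. Without the 6 members above, which include Pttg1 and Sapcd2, these counts were 4 of 6 called and 14 of 18 not called. No match says only that these letters are not in the window.

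Cdc73 (chr1:143598800-143702893, minus strand of mm10) had 5.96 FPKM in floxed and 26.2 FPKM in wild type cells at 24 h, and 5.45 FPKM in floxed and 26.9 FPKM in wild type cells at 48 h. It was at 22.7% and 20.3% of the wild type level, with q = 0.000449 and q = 0.000165 in the authors' deposited table, and its locus entry is shared with B3galt2. The cells carried myeloid RNA: the leukocyte gene Ptprc had 43.7 to 78.1 FPKM and the myeloid factor Spi1 (listed as Sfpi1) had 194.4 to 270.6 FPKM over the 4 groups. The 8 T and B cell markers summed to at most 0.396 FPKM in any group, with Cd3e listed at 0 throughout. At 48 h 25.7% of all tested genes were called higher and 31.0% lower, and the marker counts at 48 h stand beside these shares. All 11 mature granulocyte markers were called higher in floxed cells at 48 h, and their levels summed to 25369 FPKM in floxed and 6868 FPKM in wild type cells. S100a8 and S100a9 held most of the floxed sum, at 16678.5 and 6617.5 FPKM. At 24 h 4 of the 11 were called higher and 3 lower, beside 13.4% and 14.2% of all tested genes. Their levels then summed to 8094 FPKM in floxed and 9088 FPKM in wild type cells. Of 7 expressed monocyte markers 5 were called higher and 2 lower at 48 h. The list summed to 6399.5 FPKM in floxed and 2652 FPKM in wild type cells, most of it Lyz2 and Ly6c2. The 10 progenitor markers summed to 4981 FPKM in floxed and 9259 FPKM in wild type cells at 48 h. Most of these sums was Elane, Prtn3, Ctsg and Mpo, of which Prtn3 was not called. Of the 9 expressed, 3 were called higher (Ptprc, Spi1 and Csf2rb) and 4 lower. Of 6 stromal markers, Pecam1 alone reached 1 FPKM, and Col3a1 was listed at 0 throughout. The part of these marker levels in the mitosis results at 48 h was not tested. In bulk RNA, fewer dividing cells and less RNA of a gene per dividing cell cannot be told apart.

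The mitosis genes split into a few that were higher, a few that were lower and a majority without a call. At 24 h, 5 of 38 were called, and all 5 were higher in floxed cells: Bub1, Espl1, Fam64a, Pttg1 and Sapcd2. At 48 h, 13 were called, of which 7 were higher (Birc5, Cdc25c, Espl1, Incenp, Kif20a, Pttg1 and Spc25) and 6 lower (Ccnb2, Cenpe, Fam64a, Sapcd2, Tpx2 and Ttk). The shares, 13.2% and 34.2%, stood beside 27.6% of 10987 tested genes called at 24 h and 56.8% of 11039 at 48 h. Among tested genes of at least 5 FPKM, a level that all 38 members reached, 25.6% were called at 24 h and 56.7% at 48 h. Single directions held 13.4% of tested genes called higher and 14.2% called lower at 24 h, and 25.7% called higher and 31.0% called lower at 48 h. With at least 1.5-fold asked for as well, 1 member was called at 24 h (14.8% of tested genes) and 7 at 48 h (43.5%), and with q under 0.01 there were 2 at 24 h (18.2%) and 10 at 48 h (46.2%). The counts by role that follow stand beside the same shares of all tested genes, and nothing particular to a role is read from them.

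At 24 h most members had somewhat higher FPKM in floxed cells, mostly without a call. FPKM was higher in floxed cells for 30 of 38 members at 24 h, against 48.6% of all expressed genes. The median log2 difference (floxed minus wild type, on log2(FPKM + 1)) was 0.16, against -0.0083 over all expressed genes. Of 131 other mitosis genes, described below, 66 had higher FPKM in floxed cells at 24 h, with a median of 0.0020. The shift at 24 h is therefore given for these 38 members only, which were chosen with earlier results of these data known. The 8 members with lower FPKM in floxed cells had q of 0.261 or more in the authors' deposited table. A further 6 members, all with higher FPKM in floxed cells, had q between 0.05 and 0.1 in the authors' deposited table: Birc5, Cdc20, Cdc25c, Foxm1, Kif20a and Ndc80. At 48 h FPKM was higher in floxed cells for 18 members and lower for 20, against 45.8% of all expressed genes higher. The median was -0.02, against -0.06 over all expressed genes. Rescaling the groups to their median ratio turned the median of the members to 0.06 and that of all expressed genes to 0.0052. The median size of a member's log2 difference, without its sign, was 0.19 at 24 h and 0.28 at 48 h, against 0.21 and 0.47 over all expressed genes. Summed over the 38 members, FPKM was 2254 in floxed and 2068 in wild type cells at 24 h, and 2115 in floxed and 2003 in wild type cells at 48 h, ratios of 1.09 and 1.06. The members without a call stood at 0.860 to 1.35 times the wild type level at 24 h and at 0.802 to 1.31 times at 48 h.

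**Figure D2:**
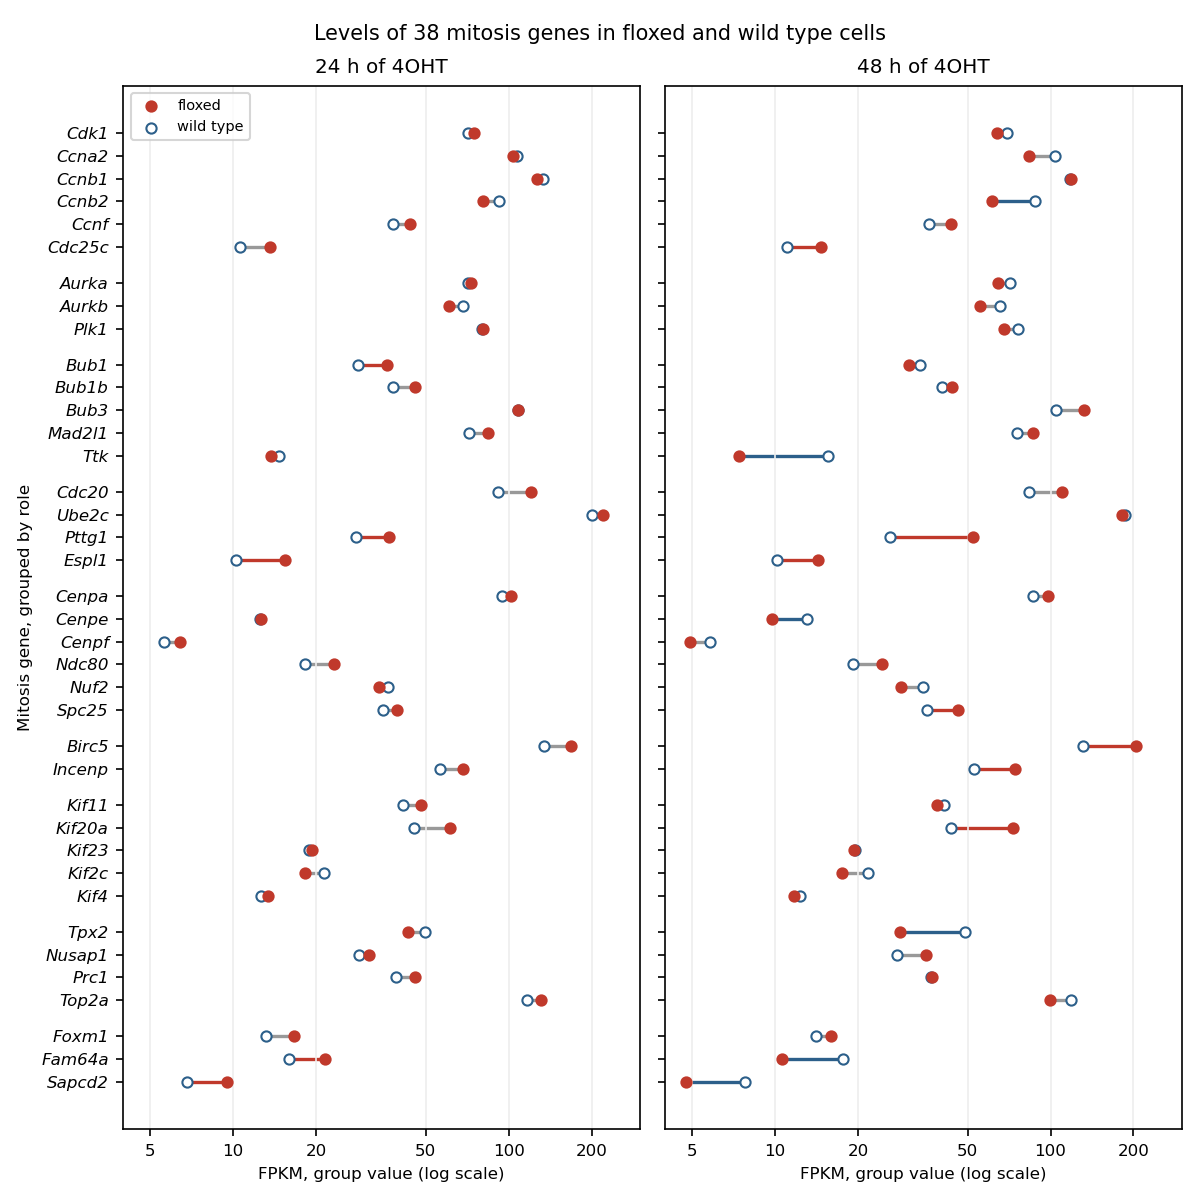
Each row is a mitosis gene, and the x axis (log scale) is its FPKM in floxed cells (filled) and wild type cells (open) at 24 h (left) and 48 h (right). A connecting line is red where the gene was called higher, blue where it was called lower and grey where it was not called. Levels run from 4.77 FPKM for Sapcd2 in floxed cells at 48 h to 221 FPKM for Ube2c in floxed cells at 24 h, and most pairs of points nearly touch.

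Of the 6 genes of cyclins, Cdk1 and its activator, 1 was called lower and 1 higher at 48 h (33.3%, beside 56.8% of all tested genes). Cdk1, the kinase that starts mitosis, had 74.7 FPKM in floxed and 71.5 FPKM in wild type cells at 24 h, and 63.8 FPKM in floxed and 69.8 FPKM in wild type cells at 48 h. Ccnb1, the main cyclin of Cdk1 in mitosis, had 126.8 and 118.6 FPKM in floxed cells at 24 and 48 h, against 132.9 and 117.9 FPKM in wild type cells. Neither was called. Ccnb2, another B cyclin, found at the Golgi, was the cyclin gene that was called. It had 80.8 FPKM in floxed and 92.5 FPKM in wild type cells at 24 h without a call. At 48 h it fell to 61.4 FPKM in floxed cells, against 87.7 FPKM in wild type cells, 1.43-fold lower with q = 0.00502 in the authors' deposited table.

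Cyclin A2, encoded by Ccna2, had 83.2 FPKM in floxed and 103.7 FPKM in wild type cells at 48 h without a call, and it shares its locus entry in the table with Exosc9. Ccnf, which encodes the substrate receptor cyclin F of a ubiquitin ligase, had 43.4 FPKM in floxed and 36.1 FPKM in wild type cells at 48 h, also without a call. Cdc25c, the phosphatase that removes the inhibitory phosphates from Cdk1, was low, at 14.7 FPKM in floxed and 11.1 FPKM in wild type cells at 48 h. Its 1.33-fold higher level passed narrowly, with q = 0.0457 in the authors' deposited table. At 24 h the same gene had 13.6 FPKM in floxed and 10.6 FPKM in wild type cells, and q was 0.0573 in the authors' deposited table.

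Of the Aurora kinase genes Aurka and Aurkb and the kinase gene Plk1, none was called at either time. Beside them stand 27.6% of all tested genes at 24 h and 56.8% at 48 h. The kinase genes Ttk and Bub1, which were called, are counted with the spindle checkpoint below. Plk1, which acts in mitotic entry, spindle assembly and cytokinesis, had 80.8 FPKM in floxed and 79.9 FPKM in wild type cells at 24 h, and 67.5 FPKM in floxed and 76.1 FPKM in wild type cells at 48 h. Aurkb, the kinase of the chromosomal passenger complex, had 61.0 and 55.6 FPKM in floxed cells at 24 and 48 h, against 68.2 and 65.5 FPKM in wild type cells. Aurka, which acts at centrosomes and is activated by Tpx2, had 64.5 FPKM in floxed and 71.2 FPKM in wild type cells at 48 h. The lowest q of the 3 was 0.227, for Aurkb at 48 h in the authors' deposited table.

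Birc5 and Incenp, which encode partners of Aurora B in the passenger complex, were called higher at 48 h. Birc5, the gene of survivin, had 169 FPKM in floxed and 134 FPKM in wild type cells at 24 h, where it was not called (q = 0.0540 in the authors' deposited table). At 48 h it had 204 FPKM in floxed and 130.9 FPKM in wild type cells, 1.56-fold higher with q = 0.000863 in the authors' deposited table, and was the most highly expressed member in floxed cells. Incenp, the scaffold of the complex, had 68.4 FPKM in floxed and 56.4 FPKM in wild type cells at 24 h without a call. It rose to 74.3 FPKM in floxed cells, against 52.8 FPKM in wild type cells, at 48 h (1.41-fold, q = 0.00710 in the authors' deposited table). Aurkb, the kinase, stood at 0.849 times the wild type level at 48 h without a call.

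Of 5 spindle checkpoint genes, 1 was called higher at 24 h and 1 lower at 48 h. That is 20% at each time, beside 27.6% and 56.8% of all tested genes. Ttk (chr9:83834689-83872389, plus strand), the kinase Mps1 that starts checkpoint signalling at the kinetochore, showed the largest lower call among the members. It had 13.7 FPKM in floxed and 14.7 FPKM in wild type cells at 24 h, and 7.39 FPKM in floxed and 15.5 FPKM in wild type cells at 48 h. The 48 h difference was 2.098-fold lower, with q = 0.000165 in the authors' deposited table, the smallest value that table holds at 48 h. Bub1, a checkpoint kinase that recruits other proteins to kinetochores, was called at 24 h and not at 48 h. Its 36.3 FPKM in floxed cells, against 28.4 FPKM in wild type cells, made it 1.28-fold higher with q = 0.0414 in the authors' deposited table. At 48 h Bub1 had 30.7 FPKM in floxed and 33.5 FPKM in wild type cells. Bub1b (the checkpoint protein BubR1), Bub3 and Mad2l1 (the checkpoint effector Mad2) were not called at either time, and their levels in floxed cells were 1.00 to 1.26 times those in wild type cells. Bub3 came nearest, at 132 FPKM in floxed and 105 FPKM in wild type cells at 48 h (q = 0.0706 in the authors' deposited table).

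The genes of sister separation held both members that were higher at each time. Pttg1 (chr11:43420250-43426251, minus strand), which encodes securin, the inhibitor of separase, had 36.7 FPKM in floxed and 28.0 FPKM in wild type cells at 24 h, and 52.5 FPKM in floxed and 26.1 FPKM in wild type cells at 48 h. These were 1.31-fold and 2.01-fold higher, with q = 0.0404 and q = 0.000165 in the authors' deposited table. The second ratio was the largest among the members. Espl1 (chr15:102296266-102324357, plus strand), which encodes separase itself, had 15.4 FPKM in floxed and 10.2 FPKM in wild type cells at 24 h (1.51-fold), and 14.3 FPKM in floxed and 10.2 FPKM in wild type cells at 48 h (1.41-fold). Its q was 0.000449 and 0.00923 in the authors' deposited table. The inhibitor and the enzyme it holds were thus both called higher at both times, beside 10.2% of the genes tested at both times.

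Cdc20 and Ube2c, which act with the anaphase-promoting complex, were not called at either time. Cdc20, its mitotic activator, had 120.7 and 110.1 FPKM in floxed cells at 24 and 48 h, against 91.5 and 83.9 FPKM in wild type cells. The ratios of 1.32 and 1.31 missed the threshold, with q = 0.0961 and q = 0.136 in the authors' deposited table, and the gene shares its locus entry with Elovl1. Ube2c, the ubiquitin-conjugating enzyme of that complex, was the highest member in 3 of the 4 groups. It had 221 FPKM in floxed and 201 FPKM in wild type cells at 24 h, and 182 FPKM in floxed and 186 FPKM in wild type cells at 48 h, with no call.

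Of the 6 centromere and kinetochore genes, 1 was called higher and 1 lower at 48 h, both close to the threshold. That is 33.3%, beside 56.8% of all tested genes. Spc25, a subunit of the Ndc80 complex that binds microtubules, had 46.0 FPKM in floxed and 35.5 FPKM in wild type cells at 48 h, and its q of 0.0499 in the authors' deposited table was the highest among the called members. At 24 h it had 39.2 FPKM in floxed and 35.1 FPKM in wild type cells without a call. Its partners in the complex were not called at either time. Ndc80 had 24.5 FPKM in floxed and 19.1 FPKM in wild type cells at 48 h. Nuf2 had 28.8 FPKM in floxed and 34.4 FPKM in wild type cells at 48 h. Cenpe, a kinesin that moves chromosomes to the spindle equator, had 9.75 FPKM in floxed and 13.04 FPKM in wild type cells at 48 h (1.34-fold lower, q = 0.0281 in the authors' deposited table). At 24 h Cenpe had 12.6 FPKM in floxed and 12.5 FPKM in wild type cells. Cenpa, the histone variant that marks centromeres, had 98.1 FPKM in floxed and 86.7 FPKM in wild type cells at 48 h. Cenpf had 4.93 FPKM in floxed and 5.82 FPKM in wild type cells at 48 h. Neither of these was called.

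Among the kinesins, Kif20a, which acts at the midzone in cytokinesis, was called. It had 61.0 FPKM in floxed and 45.2 FPKM in wild type cells at 24 h without a call, and 72.9 FPKM in floxed and 43.6 FPKM in wild type cells at 48 h (1.67-fold higher, q = 0.00315 in the authors' deposited table). Its locus entry also holds Cdc23 and Brd8, so the split of reads there is uncertain. Those 2 genes had lower FPKM in floxed cells without a call, Cdc23 at 17.3 FPKM in floxed and 24.5 FPKM in wild type cells at 48 h. Kif23, a midzone kinesin of the centralspindlin complex, had 19.4 FPKM in floxed and 19.5 FPKM in wild type cells at 48 h. Kif11, which pushes spindle poles apart, had 38.8 FPKM in floxed and 41.2 FPKM in wild type cells. Kif2c, which takes microtubules apart at kinetochores, had 17.5 FPKM in floxed and 21.7 FPKM in wild type cells, and Kif4, a chromosome-bound kinesin, had 11.7 FPKM in floxed and 12.3 FPKM in wild type cells, with no call for any of these 4.

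Tpx2 (chr2:152847964-152895321, plus strand), which nucleates spindle microtubules and activates Aurora A, was the second member with a wide lower call. It had 43.1 FPKM in floxed and 49.8 FPKM in wild type cells at 24 h without a call, and 28.5 FPKM in floxed and 48.7 FPKM in wild type cells at 48 h. That made it 1.71-fold lower, with q = 0.000165 in the authors' deposited table. The spindle proteins Nusap1 and Prc1 were not called, with Nusap1 (which shares its locus entry with Oip5) at 35.2 FPKM in floxed and 27.8 FPKM in wild type cells and Prc1 at 37.0 FPKM in floxed and 36.9 FPKM in wild type cells at 48 h. Top2a, the topoisomerase that untangles sister chromatids, had 131 and 99.8 FPKM in floxed cells at 24 and 48 h, against 117 and 119 FPKM in wild type cells, with no call. Foxm1, the transcription factor of this programme, had 16.7 FPKM in floxed and 13.2 FPKM in wild type cells at 24 h, and 15.95 FPKM in floxed and 14.1 FPKM in wild type cells at 48 h, also with no call.

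Fam64a and Sapcd2 were called in opposite directions at the 2 times. Fam64a (named Pimreg in GENCODE M21, chr11:72042032-72047370, plus strand), a gene of the metaphase to anaphase transition, had 21.6 FPKM in floxed and 16.0 FPKM in wild type cells at 24 h, and 10.6 FPKM in floxed and 17.6 FPKM in wild type cells at 48 h. It was 1.36-fold higher at 24 h (q = 0.0202 in the authors' deposited table) and 1.67-fold lower at 48 h (q = 0.000731 in the authors' deposited table). Sapcd2 (chr2:25372321-25378213, plus strand), which acts in spindle orientation, had 9.54 FPKM in floxed and 6.78 FPKM in wild type cells at 24 h, and 4.77 FPKM in floxed and 7.79 FPKM in wild type cells at 48 h. It was 1.41-fold higher at 24 h (q = 0.00682 in the authors' deposited table) and 1.63-fold lower at 48 h (q = 0.000595 in the authors' deposited table). Of 2479 genes called at both times, 136 (1.24% of the genes tested at both times) were called in opposite directions. Of those, 18 (0.164% of 10960) were higher at 24 h and lower at 48 h. Since the members were chosen with earlier results of these data known, no enrichment is read from these shares. The change of the difference between the times was not tested for any gene, since each group has 1 value.

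**Figure D3:**
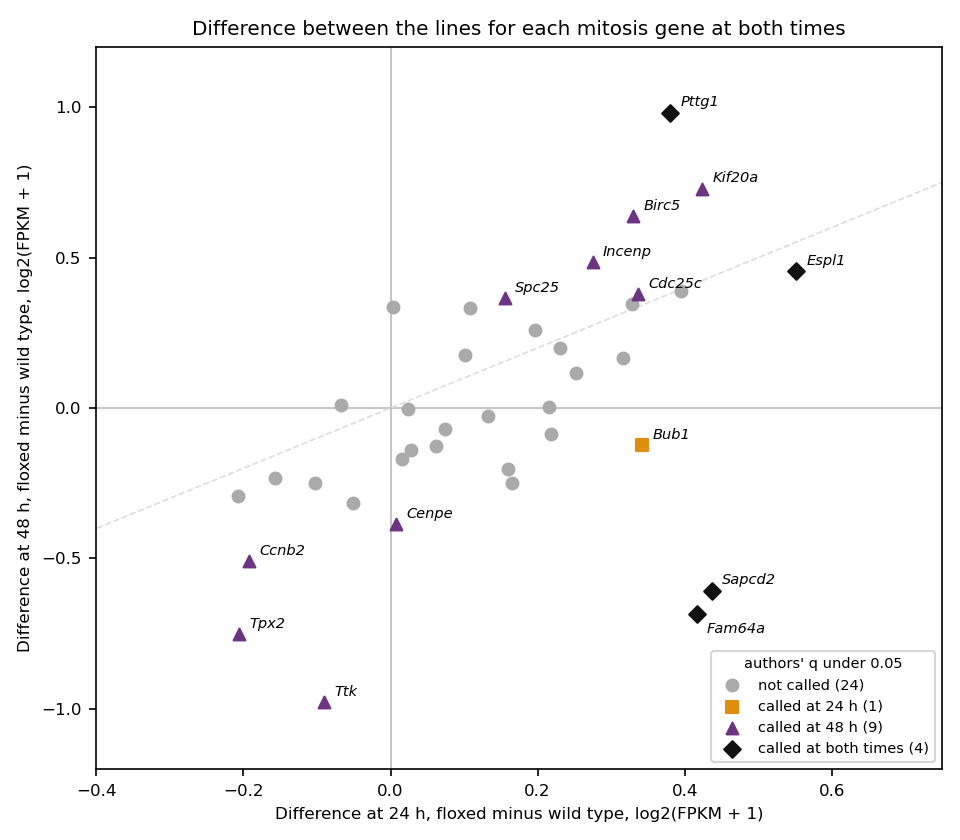
Each point is a mitosis gene, with its difference between floxed and wild type cells in log2(FPKM + 1) at 24 h on the x axis and at 48 h on the y axis, and the dashed line marks equal differences. Marker shape and colour give the time of the call. Pttg1 lies at 0.38 and 0.98, Ttk at -0.09 and -0.98, Fam64a at 0.42 and -0.68, and Sapcd2 at 0.44 and -0.61.

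Between the times, member levels in floxed cells at 48 h ran from 0.488 times the 24 h level for Fam64a to 1.43 times for Pttg1. The 4 members at least 1.5-fold lower at 48 h in floxed cells were Fam64a, Sapcd2 (0.4998), Ttk (0.539) and Tpx2 (0.662), and 16.5% of all expressed genes were lower by that much (31.0% in either direction). In wild type cells the 48 h level was 0.887 to 1.18 times the 24 h level, and 0 members reached 1.5-fold, beside 3.99% of all expressed genes in either direction and 3.25% lower. The median log2 difference of 48 over 24 h was -0.13 in floxed and -0.03 in wild type cells for the members, against -0.08 and -0.01 for all expressed genes. The floxed median of the members was -0.22 with groups rescaled to the same sum and -0.05 with groups rescaled to the median ratio, where that of all expressed genes was -0.15 and -0.0032. In wild type cells the rescaled medians of the members were between -0.02 and -0.0063. No source here says whether both times were scaled together, so these ratios are given without a call.

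**Figure D4:**
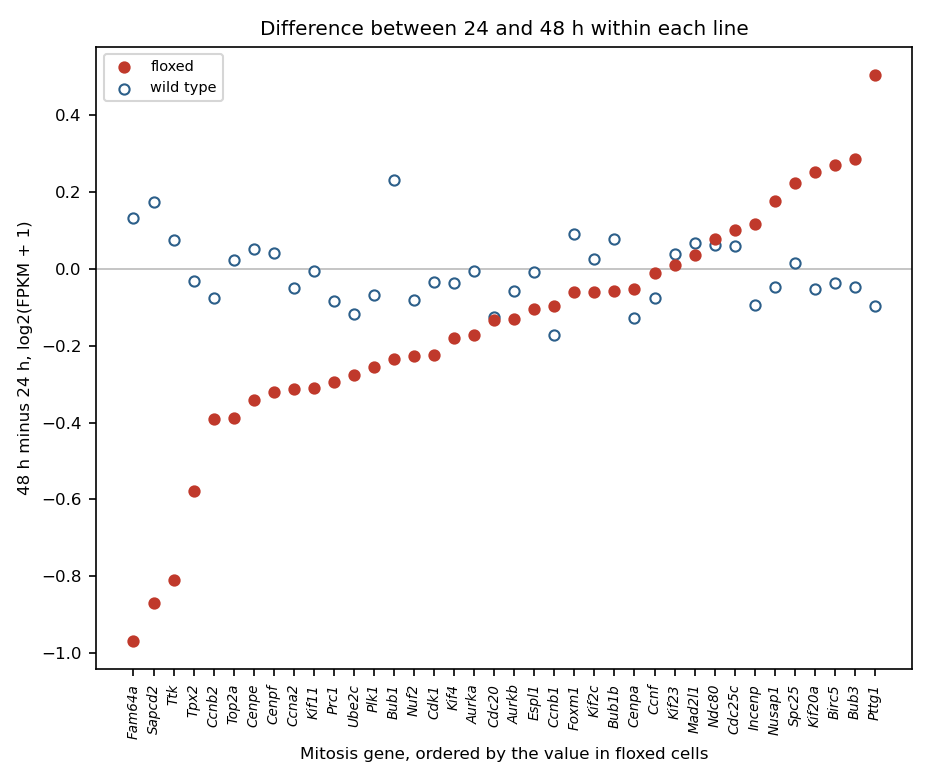
Each position on the x axis is a mitosis gene, ordered by its difference between 48 and 24 h in floxed cells, and the y axis is that difference in log2(FPKM + 1) in floxed cells (filled) and wild type cells (open). Open points stay close to 0, while filled points run from -0.97 for Fam64a to 0.50 for Pttg1.

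Other genes of mitosis, 131 in 8 lists, were counted in the same way, with no test of a list. Of these, 12 were called higher and 12 lower at 24 h, and 15 higher and 50 lower at 48 h (18.3% called in all at 24 h and 49.6% at 48 h). Over all tested genes 27.6% were called at 24 h and 56.8% at 48 h, with 25.7% higher and 31.0% lower at 48 h. The median log2 difference of the 131 was 0.0020 at 24 h and -0.26 at 48 h, against -0.0083 and -0.06 over all expressed genes. The counts and medians of the lists that follow stand beside the same shares and medians, and nothing particular to a list is read from them.

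Of 11 regulators of mitotic entry, 2 were called higher and 5 lower at 48 h (median -0.34). Mastl, the Greatwall kinase that shields Cdk1 substrates from dephosphorylation, had 1.37 FPKM in floxed and 3.45 FPKM in wild type cells, 2.52-fold lower. Bora, an activator of Plk1, was 1.93-fold lower, at 13.1 FPKM in floxed and 25.4 FPKM in wild type cells. Wee1, the kinase that restrains Cdk1, was 1.82-fold lower, at 17.0 FPKM in floxed and 30.9 FPKM in wild type cells. Of 17 genes of the anaphase-promoting complex and its partners, 1 was called higher and 7 lower (median -0.32). Cdc26, a small scaffold subunit, had 33.6 FPKM in floxed and 76.2 FPKM in wild type cells, 2.27-fold lower, and Anapc1 was 1.90-fold lower. Anapc2, the cullin subunit, was the higher one, at 58.7 FPKM in floxed and 32.9 FPKM in wild type cells.

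Of 8 condensin genes 5 were called at 48 h (62.5%, beside 56.8% of all tested genes), all lower (median -0.49), among them Smc2 at 26.2 FPKM in floxed and 45.1 FPKM in wild type cells and Smc4 at 78.0 FPKM in floxed and 113 FPKM in wild type cells. Ncaph2 was 1.71-fold lower but shares its locus entry with Sco2 and Tymp. Of 13 cohesin and shugoshin genes, 2 were called higher and 3 lower (median -0.26). Smc3, a ring subunit of cohesin, was 1.58-fold lower, at 29.8 FPKM in floxed and 47.3 FPKM in wild type cells. Of 31 further kinetochore and centromere genes, 3 were called higher and 15 lower (median -0.38). Among the lower calls were Cenpm at 5.89 FPKM in floxed and 19.7 FPKM in wild type cells (3.34-fold lower) and Cenpn at 7.38 FPKM in floxed and 15.9 FPKM in wild type cells (2.15-fold lower). Both belong to the constitutive network that sits on the centromere.

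Of 22 further spindle and motor genes, 4 were called higher and 6 lower at 48 h (median -0.17). Spag5, a spindle protein also called astrin, was 2.104-fold higher, at 38.2 FPKM in floxed and 18.1 FPKM in wild type cells, after being 1.57-fold higher at 24 h. Depdc1b was 2.17-fold lower. Of 19 centrosome genes, 2 were called higher and 6 lower (median -0.18), with the augmin subunits Haus1 and Haus4 at 2.44-fold and 2.32-fold lower and Nedd1, which brings gamma-tubulin to the spindle, at 2.21-fold lower. Of 10 cytokinesis genes, 1 was called higher and 3 lower (median -0.07), among them Ect2, the exchange factor that turns on RhoA, at 15.3 FPKM in floxed and 32.2 FPKM in wild type cells. Ect2 had been lower at 24 h as well, at 21.8 FPKM in floxed and 31.8 FPKM in wild type cells.

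A further 11 regulators of the transcription of mitosis genes, outside those lists, had 1 called higher and 4 lower at 48 h (median -0.31). Mybl2, which encodes B-Myb, was 2.003-fold lower, at 20.1 FPKM in floxed and 40.2 FPKM in wild type cells. Nfya, a subunit of NF-Y, was 1.38-fold lower, at 18.4 FPKM in floxed and 25.4 FPKM in wild type cells, and Lin52 of the MuvB core was 1.38-fold lower. In 42 DNA replication genes, which are used earlier in the cell cycle, 2 were called higher and 22 lower at 48 h, with a median of -0.44. The 38 mitosis genes had 7 higher, 6 lower and a median of -0.02. The 131 other mitosis genes had 15 higher, 50 lower and a median of -0.26. The share of replication genes called, 57.1%, was near the 56.8% of all tested genes, of which 25.7% were higher and 31.0% lower with a median of -0.06. The difference between these lists was not tested.

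**Figure D5:**
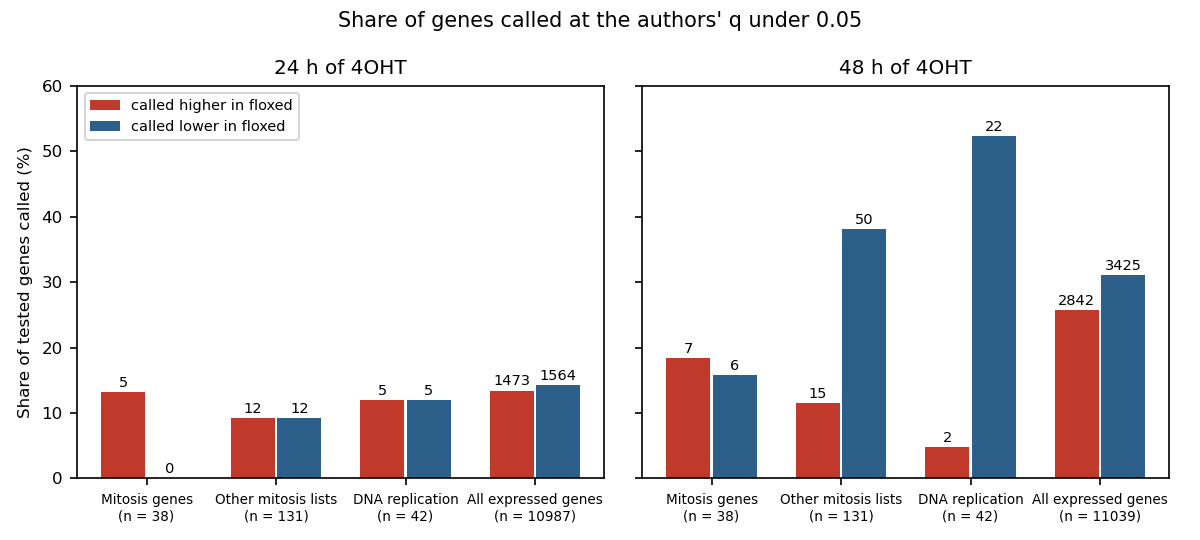
Bars give the share (%) of tested genes called higher (red) or lower (blue) in floxed than in wild type cells at 24 h (left) and 48 h (right), with counts above them, for the 38 mitosis genes, the 131 others, 42 DNA replication genes and all expressed genes. At 48 h the lower bar holds 6 of 38 mitosis genes, 50 of the 131 others and 22 of 42 replication genes.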

How the data were processed

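Poly(A) RNA of 8 libraries was measured in 4 groups. The submitters' processing notes list mm10 as the build and Bowtie2, Cuffdiff and Cufflinks 2.1 as tools, but no source used here gives their roles, strandedness, filters or annotation. The table the authors deposited holds, by its headers, 1 FPKM value per gene and group, with duplicates combined. It also holds 1 q-value per gene and time, deposited by the authors, for the comparison of the lines. The 2 columns of folds were not used. Sums of FPKM per group ran from 653299 to 699193, and depth per library is unknown.

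From these values, differences were computed as log2(FPKM + 1), and folds as ratios of FPKM, with Python 3.11.15 and pandas 2.3.3. The pseudocount understates differences of low genes. Genes of at least 1 FPKM in 1 group were kept (11158), 27 genes whose names had become dates were left out, and genes with q under 1 counted as tested. No replicate test was possible, because the table has 1 value per group, and the call is the authors'. Of the members, 6 share a locus entry with another gene. Coordinates are from GENCODE M21, 1-based, on the assembly of mm10, matched by symbol and locus. Every member may be named; for other lists, at most the 3 called genes with the largest log2 difference per time. The members and lists were chosen with earlier results of these data known. List symbols that matched no row of the table were not analysed here.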

Additional observations from a re-analysis of the deposited data

Results flagged for a closer look

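The genotype difference of 2 mitosis genes was called in opposite directions at the 2 times. The log2 difference of Fam64a at 48 h minus that at 24 h was -1.10, and that of Sapcd2 was -1.04. Both were above wild type at 24 h and below it at 48 h, in group values that combine 2 libraries each. The difference between the times was not tested, and both genes belong to a list chosen with earlier results of these data known. In wild type cells the 48 h level was 1.10 times the 24 h level for Fam64a and 1.15 times for Sapcd2, and in floxed cells these ratios were 0.488 and 0.4998. Sapcd2 is among the lowest members, at 4.77 to 9.54 FPKM over the 4 groups.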

How the results depend on the processing

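No paired analysis was possible because the columns hold 1 value per group and carry no replicate number, and leaving out a replicate was not run for the same reason. With q under 0.01 in place of 0.05, the members called at 24 h went down to 2 (Espl1 and Sapcd2), and with at least 1.5-fold asked for as well as q under 0.05 to 1 (Espl1). At 48 h the count of 13 was 10 with q under 0.01, 12 without genes that share a locus entry and 7 with at least 1.5-fold asked for (3 higher and 4 lower). Among all expressed genes these settings gave 1997 and 1628 calls at 24 h, against 3037. The other 131 mitosis genes had 12 and 7 calls at 24 h, against 24, and 36 at 48 h with at least 1.5-fold, against 65. Replication genes had 6 and 2 calls at 24 h, against 10. No filter, a filter at 5 FPKM and rescaling left every count of members at 5 and 13, but these settings could not have changed a count. Every member reached 5 FPKM in at least 1 group, so neither filter setting could add or remove one. Rescaling reused the authors' q, so it could change only the direction of a call. The median log2 difference of members at 24 h stayed between 0.14 and 0.18 under every pseudocount, scaling and filter tried. At 48 h it ran from -0.11 (groups rescaled to the same sum) to 0.06 (rescaled to the median ratio), so it has no fixed sign. The median of all expressed genes moved with it, to -0.15 and 0.0052 under the same rescalings. The direction of the 18 member calls was kept in 90 of 90 recomputations with other pseudocounts or scalings. A pseudocount cannot reverse a sign, so only the scalings could have. Those moved the log2 difference of Spc25 at 48 h, for example, from 0.37 to between 0.27 and 0.44. The count therefore says little about how firm the calls are. FPKM is relative to all other RNA and does not show total RNA, and without values per library the spread behind any level is unknown.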

Other observations

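The members were unevenly placed in the genome, with 8 of 38 on chromosome 2 (21.1%), which holds 7.85% of all expressed genes. Those 8 are Aurka, Bub1, Bub1b, Nusap1, Sapcd2, Spc25, Tpx2 and Ube2c, and at 48 h they included calls in both directions. Gene length was set beside the difference between the lines as a description. Across the 38 members, which share the same 4 groups of libraries, Spearman's rho of length with the log2 difference was -0.26 at 24 h and -0.23 at 48 h, against -0.04 and -0.15 over 11019 expressed genes with a length. The 7 members called higher at 48 h had a median length of 12.3 kb and the 6 called lower one of 25.8 kb, with ranges of 6.002 to 28.1 kb and 5.34 to 61.1 kb that overlap.

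Of 13 genes of the G1/S step, which precedes mitosis, 5 were called higher and 6 lower at 48 h, beside 25.7% higher and 31.0% lower of all 11039 tested genes. E2f2, an activator of the genes of S phase, had 63.1 FPKM in floxed and 7.03 FPKM in wild type cells. Ccnd3, a D cyclin, had 348 FPKM in floxed and 102.2 FPKM in wild type cells, and Ccnd2, another D cyclin, had 0.794 FPKM in floxed and 9.30 FPKM in wild type cells. Ccnd2 and Ccnd3 share their locus entries with other genes. Of the 42 DNA replication genes, 5 were called higher and 5 lower at 24 h (median -0.07), 23.8% beside 27.6% of all tested genes. Pcna, the sliding clamp of DNA polymerase, was 1.52-fold higher at 24 h, at 545 FPKM in floxed and 358 FPKM in wild type cells. Orc5 was 1.62-fold lower, at 14.1 FPKM in floxed and 22.8 FPKM in wild type cells, and it shares its locus entry with Gm15421.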
